A study of Mus musculus with 230 samples.

Results

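Striatal tissue was compared with glutamatergic forebrain tissue in saline self-administering mice. The striatal class was the dorsal striatum (CPu) and the nucleus accumbens (NAc), and the glutamatergic class was the prefrontal cortex (PFC), the basolateral amygdala (BLA) and the ventral hippocampus (vHipp). Libraries were taken by their labels alone: region, saline self-administration and no challenge injection, with tissue collected after 24 h of withdrawal. This gave 37 of the 230 libraries of the series, 16 striatal (8 CPu and 8 NAc) and 21 glutamatergic (7 each of PFC, BLA and vHipp), from 8 mice. All mice were male C57BL/6J, so the groups share strain, sex, the saline they had worked for and the withdrawal time. The number in a library title was taken as the mouse and entered every fit as a block. The labels give neither the age of the mice nor the way the tissue was dissected, and each library is bulk RNA from a region that holds many cell types.

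The striatum develops from the subpallium. Nearly all of its neurons are GABAergic spiny projection neurons, which fall into a direct pathway population that carries the D1 dopamine receptor and an indirect pathway population that carries the D2 dopamine and the Adora2a adenosine receptor; cholinergic and other interneurons make up the rest. The cortex, hippocampus and basolateral amygdala derive from the pallium, and most of their neurons release glutamate, which they load into vesicles with the transporter VGLUT1 (Slc17a7). Spiny neurons integrate dopamine and glutamate largely through cyclic AMP, and they are known for high levels of DARPP-32 (Ppp1r1b), a phosphatase inhibitor switched by that pathway.

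Library totals ran from 11866570 to 42135683 counts, and the scaling factors from 0.937 to 1.06. Of 43346 gene identifiers, 17043 passed the filter on low counts and were tested. Some libraries stood apart from their region. The library Hipp-182, from the vHipp, had a summed level of 18122 CPM (counts scaled to the effective library size) over 8 choroid plexus and ependymal markers, against a regional median of 28.7 CPM. Hipp-191 had 303 CPM of dopamine neuron markers, against a regional median of 8.69 CPM. NAc-185 and NAc-193 had 224 and 299 CPM of Slc17a7, against a regional median of 9.42 CPM. Where leaving out these 4 libraries moved the printed difference of a gene by over 1.5-fold, that value is given beside it.

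The labelled tissues carried their defining markers. Drd1, the D1 dopamine receptor (chr13:54051183-54055705, minus strand, GRCm38), ranged over 408 to 447 CPM in CPu (median 420.2) and 223.4 to 301 CPM in NAc (median 275). It ranged over 20.1 to 22.9 CPM in PFC (median 21.6), 16.6 to 44.2 CPM in BLA (median 24.4) and 1.23 to 8.18 CPM in vHipp (median 2.28). Every striatal library lay above every glutamatergic one, and the CPu lay above the NAc without overlap. The log2 difference was 4.72 (SE 0.148, adjusted p = 1.75e-21, edgeR quasi-likelihood test), and it was positive in 8 of 8 mice.

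Ppp1r1b (chr11:98348404-98357796, plus strand) had 848 to 2371 CPM in striatal libraries (median 1827) and 24.4 to 213 CPM in glutamatergic ones (median 56.1). Its log2 difference was 4.67 (SE 0.178, adjusted p = 1.85e-19). Of its exonic bases, 15.7% are overlapped by a gene on the opposite strand, and whether counting used strand is not stated. Slc17a7 (chr7:45163949-45176142, plus strand) ran the other way, with 3.33 to 299 CPM in striatal libraries (median 15.7) and 701 to 2072 CPM in glutamatergic ones (median 1497). Its log2 difference was -5.80 (SE 0.503, adjusted p = 3.2e-11). The mice of NAc-185 and NAc-193 showed per-mouse log2 differences of -3.49 and -3.01, while the other 6 mice lay between -7.77 and -6.46. Fitted without all 4 libraries that stood apart, Slc17a7 was at -6.53 (SE 0.311). This fit kept Cpu-185 and Cpu-193, the CPu libraries of the same mice as NAc-185 and NAc-193. Cpu-185 had 59.6 CPM and Cpu-193 76.1 CPM of Slc17a7, while the other CPu libraries had at most 28.6 CPM. In bulk tissue, fewer cells of a type and less RNA per cell cannot be told apart, here and in every comparison that follows.

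**Figure D1:**
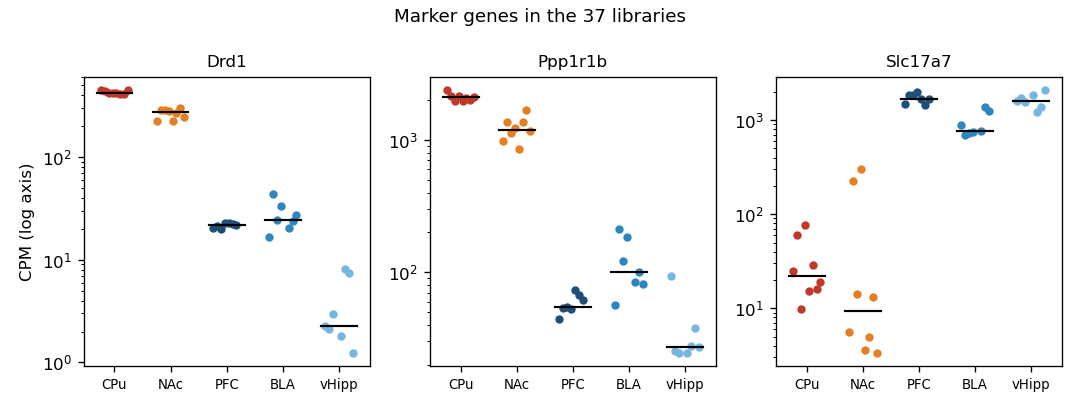
Level of Drd1, Ppp1r1b and Slc17a7 in CPM on log axes, by region, with the striatal regions CPu and NAc to the left. Each point is a library, points at the same offset share a mouse, and black bars are regional medians. Drd1 is at 223.4 CPM or more in all 16 striatal libraries and at 44.2 CPM or less in all 21 glutamatergic ones, and the 2 high points of Slc17a7 in the NAc are NAc-185 and NAc-193.

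Most tested genes differed between the classes. In striatal libraries 5803 genes (34.0%) were higher and 5727 (33.6%) lower. A difference tested to exceed 2-fold was found for 703 higher genes (4.12%) and 952 lower genes (5.59%). Of the tested genes, 1777 (10.4%) were higher and 1802 (10.6%) lower in all 6 pairs of a striatal with a glutamatergic region. In 602 genes (3.53%) the 16 striatal libraries all lay above the 21 glutamatergic ones, and in 686 (4.03%) all lay below. The calls thus reached a large share of the transcriptome, and each count of list members below is read against these shares. Leaving out the 4 outlying libraries gave 5741 higher and 5771 lower genes, 719 and 983 of them by more than 2-fold.

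The 703 genes higher by more than 2-fold were mostly shared by both striatal regions. Of them, 570 (81.1%) were higher in both CPu and NAc than in each glutamatergic region. Another 66 were above all 3 glutamatergic regions in the CPu alone, 38 in the NAc alone and 29 in neither. Of the 952 lower genes, 729 (76.6%) were above both striatal regions in PFC, BLA and vHipp alike. The rest were above both striatal regions in BLA and vHipp (66 genes), PFC and BLA (57), PFC and vHipp (56), or in 1 region or none: BLA (18), PFC (13), vHipp (12) and none (1). Direction was the same in all 8 mice for 696 of the 703 higher and 940 of the 952 lower genes. These genes were called from the same 8 mice, so this count is no separate test.

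The 6 pairs differed in how many genes they called. The CPu had 5362 higher (31.5%) and 4940 lower genes (29.0%) against the PFC, 5178 (30.4%) and 5474 (32.1%) against the BLA, and 5106 (30.0%) and 5318 (31.2%) against the vHipp. The NAc had 4938 higher (29.0%) and 4500 lower genes (26.4%) against the PFC, 4059 (23.8%) and 4213 (24.7%) against the BLA, and 4756 (27.9%) and 4911 (28.8%) against the vHipp. The NAc and the BLA were the pair with the fewest calls in both directions. Among the 703 higher genes, 641 were higher in the NAc than in the BLA, and 642 were higher in the CPu than in the BLA. Against the vHipp these counts were 678 for the NAc and 698 for the CPu, and against the PFC 672 and 699.

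The protein-coding genes with the largest positive differences were led by Serpina9, a serpin family gene (chr12:103994743-104013755, minus strand). It had 60.1 to 88.1 CPM in CPu (median 75.8) and 39.4 to 70.9 CPM in NAc (median 52.8), against at most 1.41 CPM in any glutamatergic library. Its log2 difference was 7.70 (SE 0.145, adjusted p = 1.07e-26). Scn4b, a beta subunit of voltage-gated sodium channels, had 2207 to 2708 CPM in CPu (median 2531), 639 to 1125 CPM in NAc (median 898) and 5.7 to 59.8 CPM in glutamatergic libraries (median 14.9), a log2 difference of 6.53 (SE 0.249). The CPu libraries held the highest levels of both genes. Cd4, best known as a T-cell co-receptor, had 29.6 to 169.9 CPM in striatal libraries and 0.0848 to 9.68 CPM in glutamatergic ones (log2 difference 6.53, SE 0.215). Ptpn7, a tyrosine phosphatase known from blood cells, had 3.51 to 20 CPM and 0 to 0.482 CPM in the same order of classes (log2 difference 6.82, SE 0.185). Sh3rf2 and Impg1 had log2 differences of 6.33 (SE 0.297) and 6.16 (SE 0.235), and Sh3rf2 stood at 7.10 without the 4 outlying libraries.

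Another 5 genes of this set belong to known striatal cell classes. Adora2a, an adenosine receptor, and Gpr6, an orphan receptor of indirect pathway neurons, had log2 differences of 6.22 (SE 0.271) and 6.15 (SE 0.184). Isl1, a LIM homeodomain factor used by direct pathway and cholinergic neurons during development, had 14.1 to 40.8 CPM in striatal libraries and 0 to 7.53 CPM in glutamatergic ones (log2 difference 6.12, SE 0.2). Lhx8 and Chat, genes of cholinergic neurons, had log2 differences of 6.81 and 6.71. Lhx8 had a median of 0 CPM in both PFC and vHipp and of 2.32 CPM in BLA, and the size of its difference moved with how the regions were weighted. It was 3.85 when class means over libraries were compared, 5.59 without the PFC or without the vHipp, and 9.24 without the BLA. Chat stood at 5.62 with class means over libraries, 5.31 without the vHipp and 8.17 without the BLA. For all 5 of these genes, the BLA had the highest glutamatergic median. Adora2a ranged over 4.01 to 65.9 CPM in BLA (median 11.5), against medians of 2.7 CPM in PFC and 1.67 CPM in vHipp. The BLA libraries were uneven, and BLA-185, BLA-191 and BLA-193 held the highest BLA levels of all 5 genes. Adora2a had 65.9, 26.6 and 54.6 CPM in them, and at most 11.5 CPM in any other BLA library. Chat had 3.9, 5.26 and 7.21 CPM in them, and at most 0.789 CPM in any other BLA library.

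The largest negative difference was that of Grp, the gastrin-releasing peptide. Its highest striatal level was 0.293 CPM and its lowest glutamatergic level 3.78 CPM, with medians of 0.0883 CPM in striatal and 17.2 CPM in glutamatergic libraries (log2 difference -7.56, SE 0.339, adjusted p = 7.33e-18). Slc9a4, a sodium/proton exchanger, had at most 0.194 CPM in striatal libraries and medians of 1.13, 5.18 and 35.3 CPM in PFC, BLA and vHipp (log2 difference -6.99, SE 0.376, and -7.65 without the 4 outlying libraries). At striatal levels this close to 0, the size of a fitted difference depends on the prior count of the fit. Neurod6, a basic helix-loop-helix factor of postmitotic pyramidal neurons, had 0 to 5.89 CPM in striatal libraries (median 0.514) and 30.1 to 222 CPM in glutamatergic ones (median 111.4). Its log2 difference was -5.91 (SE 0.39), and -6.94 (SE 0.378) without the 4 libraries that stood apart. The anion exchanger Slc26a4, the lectin Clec18a, Tbata, the secreted Wnt agonist Rspo2, Neurod2, Prdm8 and the Nogo receptor relative Rtn4rl2 had log2 differences between -6.16 and -5.04. Leaving out the 4 outlying libraries gave -6.36 for Neurod2, -6.09 for Prdm8 and -5.91 for Rtn4rl2, against -5.37, -5.22 and -5.04 with them. Efcab3 also met the conditions (-5.34), but 73.2% of its 50-base words also occur in the transcripts of the overlapping gene Gm11639, so its count is uncertain.

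**Figure D2:**
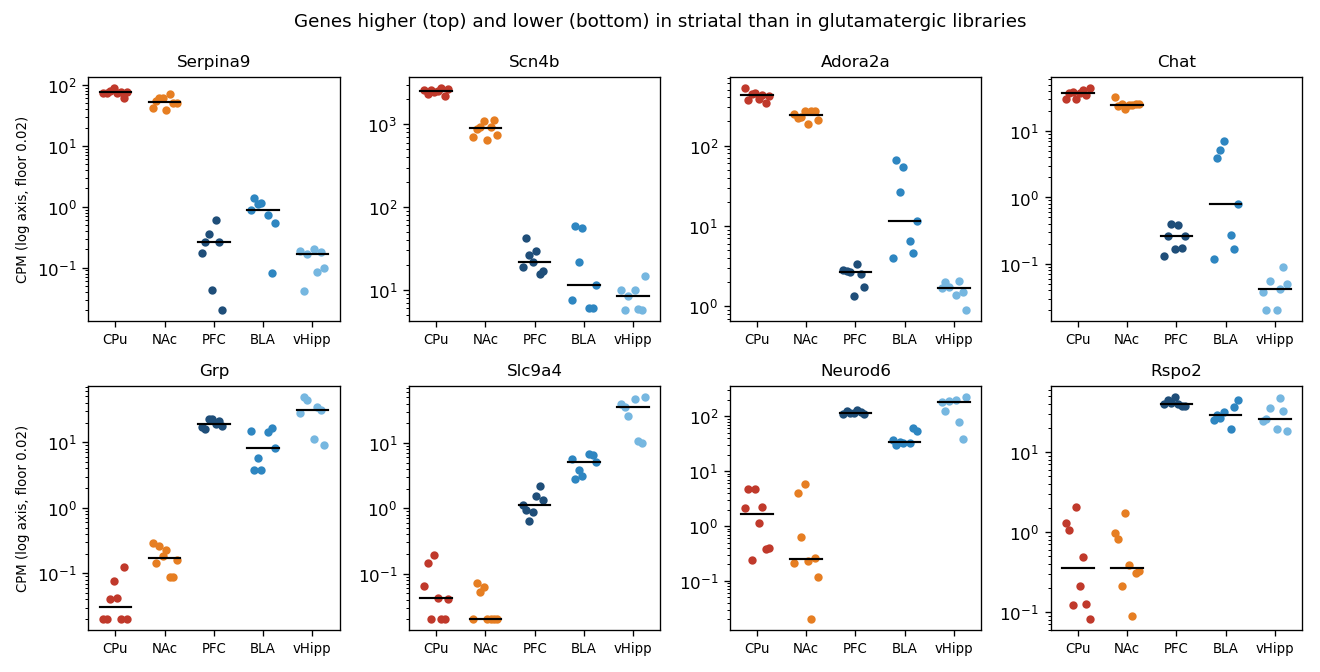
Level in CPM on log axes of 4 genes higher (top row) and 4 lower (bottom row) in striatal libraries, by region with CPu and NAc to the left; values under 0.02 CPM are drawn at 0.02. Points are libraries and bars are regional medians. The 8 genes were picked from those with no overlap between the classes, so the gap follows from that choice. The BLA shows the widest spread for Adora2a and Chat.

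The gene lists below were chosen with earlier results of these data known, so their counts are no independent test. Genes shared by both kinds of spiny projection neuron were higher in striatal libraries in 14 of 14 cases, beside 34.0% of all genes tested. All 14 passed the test for more than 2-fold, beside 4.12% of all genes. Their median log2 difference was 3.58, beside 0.01 over all genes tested. Summed, they reached 9721 to 20976 CPM in striatal libraries (median 15149) and 1092 to 2915 CPM in glutamatergic ones (median 1607). Rgs9, which speeds the shut-off of G proteins, followed Ppp1r1b at 4.51 (SE 0.109). Pde10a, which breaks down cyclic AMP and cyclic GMP, had 779 to 2827 CPM in striatal libraries and 66.2 to 174 CPM in glutamatergic ones (log2 difference 4.06, SE 0.0829). Rasgrp2, an activator of the small GTPase Rap, stood at 3.76 (SE 0.117).

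Per kilobase of exon, the levels of these genes can be set side by side. Penk had the highest mean of those compared in striatal libraries at 1088 CPM per kilobase, ahead of Ppp1r1b at 567 and Scn4b at 339. Their glutamatergic means were 89.4, 24.5 and 3.82 CPM per kilobase in the same order of genes.

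Direct pathway genes were higher in 7 of 8 cases and lower in 1. Tac1, which encodes substance P, had 235 to 417 CPM in striatal libraries and 2.77 to 40.3 CPM in glutamatergic ones (log2 difference 4.36, SE 0.144). Slc35d3, a transporter-like protein tied to D1 receptor traffic in mice, had a log2 difference of 5.30 (SE 0.127). Pdyn, the dynorphin precursor, had 272 to 384 CPM in NAc and 100.3 to 133 CPM in CPu. Isl1 also had its higher striatal median in the NAc (22.8 CPM, against 19.6 CPM in CPu), with overlapping ranges. The glutamatergic levels of Pdyn ran from 0.593 to 98.8 CPM, so for Pdyn the CPu lay just above the highest BLA library. Its log2 difference of the classes was 3.16 (SE 0.176). The transcription factor Ebf1 was higher by 1.94 (SE 0.104). Eya1, a transcriptional cofactor of the list, went the other way at -0.78 (SE 0.0734, adjusted p = 6.67e-11).

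Indirect pathway genes were higher in 5 of 5 cases. Drd2, the D2 dopamine receptor, had 194.9 to 265 CPM in CPu and 91.5 to 149 CPM in NAc, against 0.642 to 24.4 CPM in glutamatergic libraries (log2 difference 5.51, SE 0.241). Penk, the enkephalin precursor, had 1126 to 2638 CPM in striatal libraries, but the BLA held 149 to 779.6 CPM (median 295), against medians of 22.8 CPM in PFC and 14.8 CPM in vHipp. The classes did not overlap for Penk (log2 difference 5.08, SE 0.182). Sp9, a zinc finger factor of the indirect pathway lineage, also had its highest glutamatergic level in the BLA. It had medians of 26.5 CPM in CPu, 24.3 CPM in NAc and 20.3 CPM in BLA, against 4.27 CPM in PFC and 5.24 CPM in vHipp (log2 difference 1.66, SE 0.0719), and it was not called in all 6 pairs.

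Genes of glutamatergic neurons were lower in striatal libraries in 15 of 15 cases, beside 33.6% of all genes tested. Of these 15, 13 were lower by more than 2-fold, beside 5.59% of all genes, and the median log2 difference was -3.98. The median was -4.64 without the 4 libraries that stood apart. Summed, they reached 99.3 to 568 CPM in striatal libraries (median 133) and 1158 to 3983 CPM in glutamatergic ones (median 2971). The BLA had the lowest glutamatergic sums, with a median of 1279 CPM against 3290.5 CPM in PFC and 3189 CPM in vHipp. Nrn1, a secreted neuritin of excitatory neurons, had 1.16 to 35.3 CPM in striatal libraries and 58.5 to 277 CPM in glutamatergic ones (log2 difference -4.86, SE 0.342). Bhlhe22 and Neurod1, both bHLH factors, stood at -4.76 (SE 0.192) and -5.13 (SE 0.364). Nrn1 stood at -5.47 and Neurod1 at -6.08 without the 4 outlying libraries.

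Transcription factors split along the line between subpallium and pallium. Of 21 subpallial factors, 18 were higher in striatal libraries, 1 was lower and 2 were not called, Sp8 (-0.39) among them. Their median log2 difference was 1.87. Six3, a homeodomain factor needed for indirect pathway neurons, had 54.1 to 79 CPM in striatal libraries and 0 to 35.4 CPM in glutamatergic ones. Nearly all of the glutamatergic signal was in the BLA, whose median was 21.7 CPM against 0.106 CPM in PFC and 0.0988 CPM in vHipp (log2 difference 6.02, SE 0.249, and 6.80 without the 4 outlying libraries). Foxp2, a forkhead factor known for its part in vocal learning, had 68.9 to 131 CPM in striatal libraries and 0.346 to 35 CPM in glutamatergic ones (3.4, SE 0.144). Zfp503 stood at 2.97 (SE 0.0877). Dlx1, a homeodomain factor that also marks cortical interneurons, was the member that was lower (-0.59, SE 0.0946, adjusted p = 2.4e-06).

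Of 19 pallial factors, 16 were lower in striatal libraries and 3 higher, with a median log2 difference of -1.81. Tbr1, a T-box factor of deep-layer neurons, had 1.1 to 8.25 CPM in CPu and 0.179 to 32.2 CPM in NAc, against 161.3 to 210.7 CPM in PFC, 32 to 61.7 CPM in BLA and 21.3 to 72.5 CPM in vHipp (log2 difference -4.0, SE 0.386). Emx1, which marks the dorsal pallial lineage, stood at -3.98 (SE 0.279). Without the 4 outlying libraries Tbr1 was at -4.64 and Emx1 at -4.74. Tle4, a Groucho family corepressor used as a marker of deep cortical layers, was higher in all 16 striatal libraries than in any glutamatergic one, with 108 to 189 CPM against 34.8 to 93.7 CPM (1.15, SE 0.0541). Cux1, an upper-layer factor, was higher by 0.88 (SE 0.0557). Bcl11a was higher by 0.15 (SE 0.0466, adjusted p = 0.00514), a direction that turned to -0.09 without the NAc and to -0.21 without the BLA. By the quasi-likelihood test, Bcl11a was called as lower without the BLA (adjusted p = 3.17e-05) and not called without the NAc (adjusted p = 0.218).

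Promoter sequences of RefSeq (GRCm38.p6) were searched on both strands, over the 250 bases before each start, for CAGATG (the E-box bound by Neurod factors, CATCTG on the other strand), TAATTA (a homeodomain core) and TGACGTCA (the full cyclic AMP response element). The last 2 read the same on both strands, and a CAGATG that runs into a TGACGTCA through shared letters was counted for both. Among genes that met the conditions for the leading set, 237 of 313 higher and 272 of 363 lower genes had a window. CAGATG was in 34 of 340 windows (10%) of the higher and 46 of 382 (12%) of the lower genes, beside 1700 of 15870 windows (10.7%) of tested genes. TAATTA was in 12 (3.53%) and 8 (2.09%) of these windows, beside 2.69%, and TGACGTCA in 5 (1.47%) and 6 (1.57%), beside 2.39%. Every share lay near that of tested genes. The windows of 4 members described above are shown to give their letters, with any motif in capitals: Rgs9 (chr11:109298182-109298431, minus strand), Neurod2 (chr11:98329646-98329895, minus), Tbr1 (chr2:61804203-61804452, plus) and Slc17a7 (chr7:45163671-45163920, plus), whose window holds none of the 3.
Rgs9: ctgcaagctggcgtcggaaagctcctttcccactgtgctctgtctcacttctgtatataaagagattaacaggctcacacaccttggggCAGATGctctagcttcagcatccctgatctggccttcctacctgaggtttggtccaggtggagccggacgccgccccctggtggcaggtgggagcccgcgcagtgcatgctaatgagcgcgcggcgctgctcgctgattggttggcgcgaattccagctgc
Neurod2: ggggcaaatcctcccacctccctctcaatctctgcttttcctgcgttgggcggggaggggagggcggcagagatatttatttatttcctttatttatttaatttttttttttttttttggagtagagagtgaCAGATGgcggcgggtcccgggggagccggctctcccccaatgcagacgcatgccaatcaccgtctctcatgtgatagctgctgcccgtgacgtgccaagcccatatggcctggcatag
Tbr1: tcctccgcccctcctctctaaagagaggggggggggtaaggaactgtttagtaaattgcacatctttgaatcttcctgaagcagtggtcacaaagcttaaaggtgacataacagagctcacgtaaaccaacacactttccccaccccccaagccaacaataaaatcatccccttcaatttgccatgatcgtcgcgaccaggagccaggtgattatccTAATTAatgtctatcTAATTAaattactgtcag
Slc17a7: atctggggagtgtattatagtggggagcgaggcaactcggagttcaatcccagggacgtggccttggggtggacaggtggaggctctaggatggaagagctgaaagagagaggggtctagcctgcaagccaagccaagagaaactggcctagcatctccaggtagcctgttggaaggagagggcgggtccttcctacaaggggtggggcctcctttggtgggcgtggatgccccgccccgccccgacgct
A match is a description of the letters and was not tested as a binding site.

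Of 9 genes for GABA synthesis, transport and anchoring, 7 were higher in striatal libraries and 2 lower, with a median log2 difference of 0.34. Slc32a1, which loads GABA into vesicles, had 215 to 307 CPM in striatal libraries and 51.8 to 179 CPM in glutamatergic ones (1.67, SE 0.0625). Of its exonic bases, 24.9% are overlapped by a gene on the opposite strand. Gad2 and Gad1, the enzymes that make GABA, were higher by 1.47 (SE 0.0557) and 0.85 (SE 0.0396), differences small beside those of spiny neuron markers. Among the lower members was Slc6a11, a GABA transporter that is mostly astrocytic (-0.76, SE 0.0881).

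Of 12 genes for glutamate handling, 10 were lower in striatal libraries, 1 was higher and 1 was not called (Glul, -0.09). Slc17a6, the VGLUT2 transporter, had medians of 0.502 CPM in CPu and 7.44 CPM in NAc, against 15.7, 29.6 and 8.1 CPM in PFC, BLA and vHipp (log2 difference -2.98, SE 0.366). The NAc and the vHipp were thus close for this gene, which was not called in all 6 pairs. Slc17a8, the VGLUT3 transporter that cholinergic interneurons carry, was the member that was higher, at 15.3 to 30.4 CPM against 1.31 to 13 CPM (2.62, SE 0.162).

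Genes of cyclic nucleotide signalling moved in both directions within the same enzyme families, around a list median of 0.14. Of 43 tested members, 21 were higher in striatal libraries, 16 lower and 6 not called. The phosphodiesterases Pde7b and Pde1b were higher by 3.62 (SE 0.14) and 3.41 (SE 0.0936). Adcy5, the main adenylyl cyclase of spiny neurons, had 1129 to 2428 CPM in striatal libraries and 160.9 to 448 CPM in glutamatergic ones (2.87, SE 0.0628). Gng7, a G protein subunit that works with it, had a log2 difference of 3.25 (SE 0.0883). The cyclases Adcy8 and Adcy6 were lower, at -1.82 (SE 0.118) and -1.77 (SE 0.08) on the log2 scale. Pde1a, a relative of Pde1b, had 23.6 to 191.2 CPM in striatal libraries and 195.4 to 389 CPM in glutamatergic ones (-2.0, SE 0.0861). The 2 striatal regions differed for Pde1a, which was at -0.9 without the CPu and at -3.11 without the NAc.

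Of 26 tested receptors for dopamine, serotonin, acetylcholine, adenosine, opioids and related ligands, 15 were higher in striatal libraries, 8 lower and 3 not called. Drd3, the D3 dopamine receptor, was mainly in the NAc, with a median of 8.07 CPM against 1.57 CPM in CPu and at most 0.964 CPM in any glutamatergic library (log2 difference 5.25, SE 0.227). The classes overlapped for Drd3, since the lowest striatal library had 0.657 CPM. Htr1a, the 5-HT1A serotonin receptor, and Chrm3, the M3 muscarinic receptor, were lower, at -1.81 (SE 0.112) and -1.64 (SE 0.0824). Htr1a was at -1.01 without the CPu and at -2.62 without the NAc. The nociceptin receptor Oprl1 stood at -0.89 (SE 0.0583).

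Of 18 tested RGS proteins, which end G protein signals, 7 were higher in striatal libraries, 5 lower and 6 not called. Over all genes tested, 34.0% were higher and 33.6% lower. After Rgs9, the largest positive differences were those of Rgs2 (1.69, SE 0.073) and Rgs8 (1.64, SE 0.0846). Rgs13 was lower, at -1.95 (SE 0.274), at levels of 0 to 0.379 CPM in striatal and 0.19 to 1.1 CPM in glutamatergic libraries.

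Neuropeptide genes were split, with 6 of 16 higher in striatal libraries, 8 lower and 2 not called (Npy, 0.11, and Gal, -1.05). The precursors of enkephalin, substance P and dynorphin led the higher ones. Cck, the cholecystokinin precursor of pyramidal neurons and some interneurons, had 1.85 to 22.3 CPM in striatal libraries and 107 to 286 CPM in glutamatergic ones (-4.70, SE 0.25). Vip and Cort, peptides of cortical interneurons, stood at -4.05 (SE 0.197) and -3.28 (SE 0.179). Adcyap1, the PACAP precursor, had a median of 27.8 CPM in PFC, against 8.58 CPM in BLA and 2.27 CPM in vHipp, and at most 4.6 CPM in a striatal library (-4.28, SE 0.49, and -5.40 without the 4 outlying libraries).

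Receptors for glutamate and GABA differed by subunit. Of 18 ionotropic glutamate receptor genes, 7 were higher in striatal libraries, 8 lower and 3 not called. Over all genes tested, 34.0% were higher and 33.6% lower. The kainate receptor subunit Grik2 was higher in every striatal library, at 133 to 173 CPM against 66.3 to 88.2 CPM (1.01, SE 0.0448), while its relatives Grik1 and Grik4 were lower, at -2.03 (SE 0.132) and -1.86 (SE 0.128). Without the CPu, Grik1 was at -1.36 and Grik4 at -1.07. Without the NAc they were at -2.7 and -2.66. Grin3b had the largest positive value (2.0, SE 0.195) at 0.321 to 1.71 CPM in striatal and 0 to 0.456 CPM in glutamatergic libraries, and 32.1% of its exonic bases are overlapped by an opposite-strand gene. Of 7 tested metabotropic glutamate receptors, 5 were higher and 2 lower. Grm4, a presynaptic inhibitory receptor, had 66.7 to 119.7 CPM in striatal libraries and 5.21 to 34 CPM in glutamatergic ones (2.56, SE 0.12). Grm2, a receptor that also couples to inhibitory G proteins, ran the other way, at 1.07 to 4.09 CPM against 3.01 to 99.1 CPM (-4.45, SE 0.309).

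Of 14 tested GABA-A receptor subunits, 4 were higher, 6 lower and 4 not called, beside 34.0% higher and 33.6% lower over all genes tested. Gabrd, the delta subunit of extrasynaptic receptors, had 93 to 204.5 CPM in striatal libraries and 5.88 to 51.4 CPM in glutamatergic ones (2.81, SE 0.143), and Gabra4, its frequent partner, stood at 1.15 (SE 0.0604). Gabra3 and Gabra5 were lower, at -1.62 (SE 0.0781) and -1.34 (SE 0.0969). The subunit of the highest vHipp level among them was Gabra5, with a vHipp median of 184 CPM against 79.8 CPM in PFC and 49.2 CPM in BLA.

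Potassium channel genes were called in 48 of 52 cases, 22 higher in striatal libraries and 26 lower, around a median of -0.14. Of all genes tested, 34.0% were higher and 33.6% lower. Kcnj2, the inward rectifier Kir2.1, had 48.2 to 97.2 CPM in striatal libraries and 2.37 to 19.8 CPM in glutamatergic ones (2.80, SE 0.119). Kcna5 and Kcnh4, voltage-gated channels, were higher by 3.51 (SE 0.134) and 2.68 (SE 0.168). Kcnj6, the GIRK2 channel opened by G proteins, had 0.446 to 3.97 CPM in striatal libraries and 8.42 to 39.4 CPM in glutamatergic ones (-3.79, SE 0.157). Kcnc4, a fast voltage-gated channel, stood at -3.01 (SE 0.136).

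Of 31 genes of calcium signalling, 11 were higher in striatal libraries, 18 lower and 2 not called (Atp2a2, 0.10, and Prkca, -0.27). The release channels split, with Ryr1 (1.5, SE 0.114) and Itpr1 (1.44, SE 0.0889) higher and Ryr2 (-1.46, SE 0.0789) lower. Itpr1 was at a median of 755 CPM in PFC, close to the NAc at 832 CPM, while the CPu stood at 1613 CPM. The calcium sensors Ncald and Vsnl1 were lower, at -2.74 (SE 0.127) and -2.26 (SE 0.0914).

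Retinoic acid is a known regulator of striatal development, and of 18 genes of its pathway 10 were higher in striatal libraries, 6 lower and 2 not called (Aldh1a1, 0.02, and Dhrs3, -0.04). The receptors Rarb and Rxrg were higher by 4.18 (SE 0.0673) and 2.95 (SE 0.0808), and Rara was lower, at -1.55 (SE 0.061). Of the exonic bases of Rarb, 38.4% are overlapped by genes on the opposite strand. Rarb had 107 to 203.3 CPM in striatal libraries and 5.81 to 14.9 CPM in glutamatergic ones. Cyp26b1, which breaks retinoic acid down, was highest in the BLA, with a median of 156 CPM there against 0.947 to 2.59 CPM as medians of the other 4 (log2 difference of the classes -2.66, SE 0.199).

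**Figure D3:**
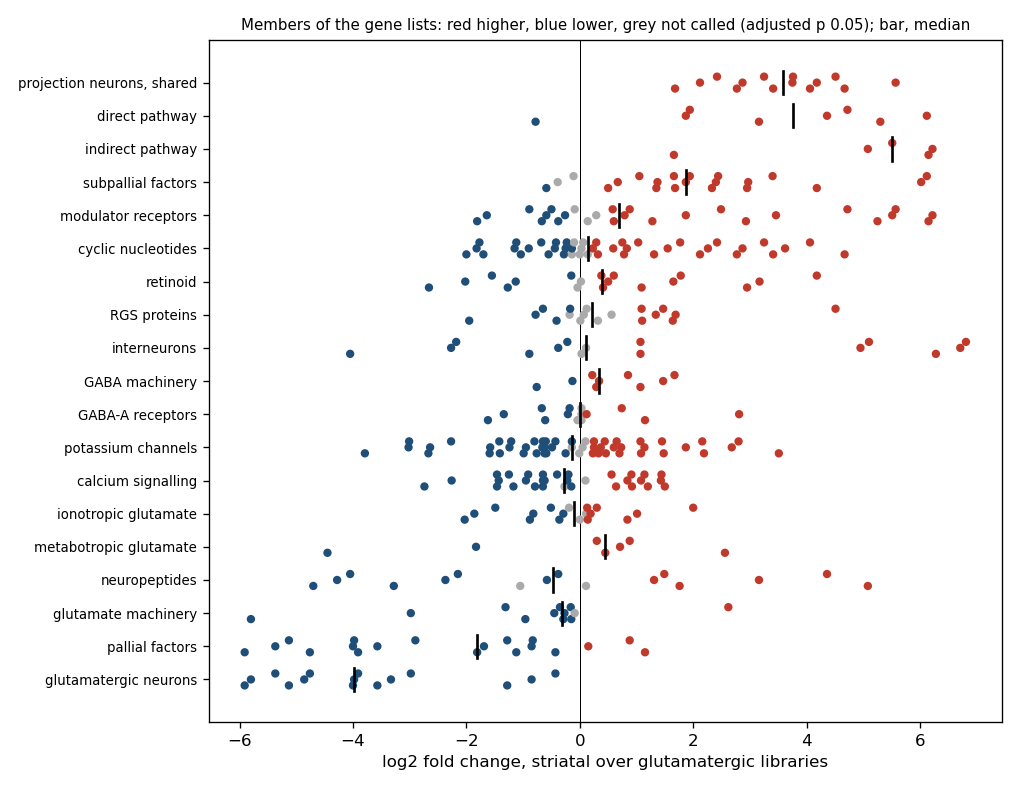
Log2 fold change, striatal over glutamatergic libraries, of every tested member of 19 gene lists. Red points are higher, blue points lower and grey points not called at an adjusted p of 0.05, and black bars are list medians. The medians run from 5.51 for indirect pathway genes to -3.98 for glutamatergic neuron genes, and most signalling lists straddle 0.

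Of 15 interneuron genes, 7 were higher in striatal libraries, 6 lower and 2 not called (Npy, 0.11, and Lhx6, 0.03). The 5 cholinergic members were all higher. Chat, the enzyme that makes acetylcholine (chr14:32408203-32465989, minus strand), had 30.4 to 44.1 CPM in CPu and 21.5 to 32.6 CPM in NAc. Its levels were 0.119 to 7.21 CPM in BLA, at most 0.404 CPM in PFC and at most 0.0905 CPM in vHipp (log2 difference 6.71, SE 0.329, adjusted p = 7.65e-17). Slc18a3 and Slc5a7, the vesicular acetylcholine and the choline transporter, stood at 5.10 (SE 0.305) and 4.95 (SE 0.191). Htr3a, a serotonin receptor channel, and Calb2, calretinin, were lower, at -2.27 (SE 0.111) and -2.18 (SE 0.265). Calb2 was at -1.12 without the CPu and at -3.19 without the NAc. The other lower members were Pvalb (-0.89), Sst (-0.38) and Nos1 (-0.22), and the other higher ones were Reln and Lamp5 (1.07 each).

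Several marker lists of other cell types went mostly in 1 direction. All 8 oligodendrocyte markers were higher in striatal libraries, with a median log2 difference of 0.92 (0.80 without the 4 libraries that stood apart). Their summed level was 3799.6 to 7876 CPM in striatal libraries (median 6028) and 952 to 6841 CPM in glutamatergic ones (median 2925), so the classes overlapped. Of 8 astrocyte markers 7 were lower, led by Gfap (-2.02, SE 0.145), and their sum was 1478 to 1877 CPM in striatal and 1605 to 2838 CPM in glutamatergic libraries. The PFC, at 1605 to 1838 CPM, lay within the range of the striatal libraries. All 6 leptomeningeal markers were lower, with sums of 33.9 to 81.7 CPM in striatal and 37.4 to 609 CPM in glutamatergic libraries, and 5 of 6 were lower without the 4 libraries. All 5 blood markers were higher, at sums of 54.5 to 517 CPM in striatal and 57 to 269 CPM in glutamatergic libraries, and the globin pairs share sequence.

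Of 8 microglial markers, 5 were higher with a median of 0.16, and of 9 endothelial and pericyte markers 1 was higher, 1 lower and 7 not called. Of 5 markers of oligodendrocyte precursors, 2 were higher and 2 lower. Among 8 choroid plexus and ependymal markers, 3 were higher and 2 lower. Ttr, the transthyretin of the choroid plexus, had 0.116 to 4.29 CPM in striatal libraries and 0.392 to 17171 CPM in glutamatergic ones (-4.07, and -2.98 without the 4 outlying libraries). The dopamine neuron list had 1 higher gene of 3 tested, Th (1.86, SE 0.427, and 2.52, SE 0.16, without the 4 libraries), and En1 and Foxa2 did not pass the filter. General neuronal genes were lower in 6 of 8 cases and higher in 2, at sums of 5057 to 6329.7 CPM in striatal and 6488 to 9768 CPM in glutamatergic libraries. Of the hypothalamic peptides only Avp passed the filter, at -2.31 (SE 0.463). The part of any of these lists in the differences of neuronal genes was not tested.

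**Figure D4:**
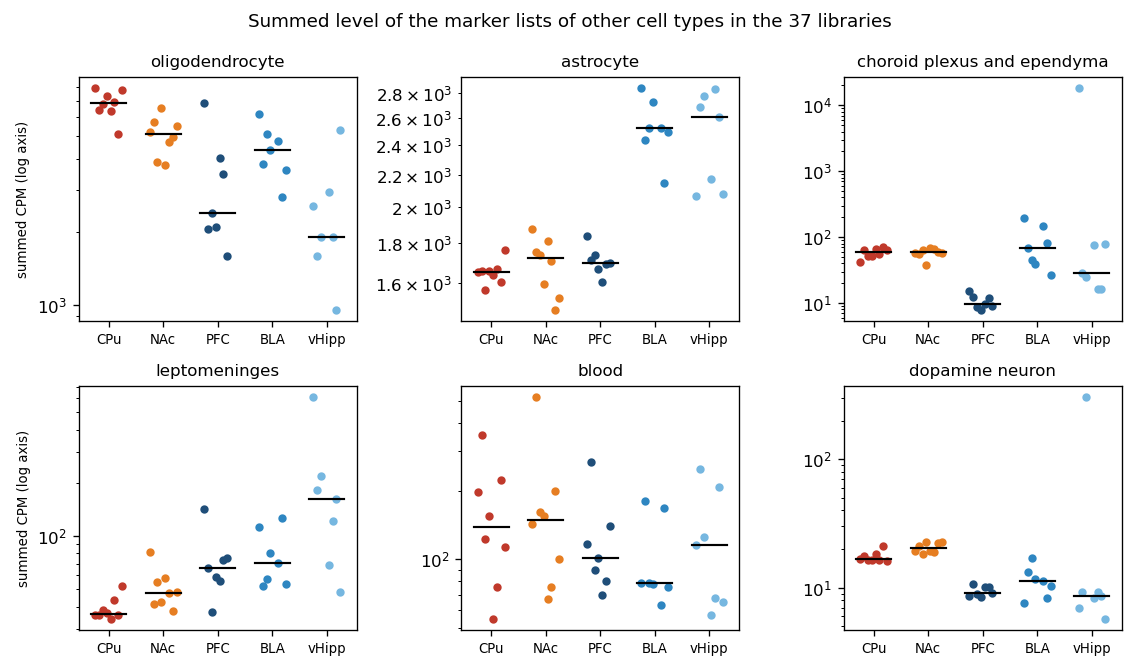
Summed CPM of the marker lists of 6 other cell types on log axes, by region with CPu and NAc to the left; points are libraries and bars are regional medians. The single high points are Hipp-182 for choroid plexus and ependyma (18122 CPM) and Hipp-191 for dopamine neurons (303 CPM).

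The same contrast was then taken in the other 5 conditions, which hold other mice of the same strain and sex. These were cocaine self-administration with 24 h of withdrawal (C24, 38 libraries, 8 mice), and 30 d of withdrawal with tissue taken 1 h after an injection. Of the 30 d mice, saline mice received saline (SS, 33 libraries, 8 mice) or cocaine (SC, 32 libraries, 8 mice), and cocaine mice received saline (CS, 27 libraries, 6 mice) or cocaine (CC, 32 libraries, 7 mice). The saline 24 h mice described so far are S24. Differences of more than 2-fold were called for 649 higher (3.76%) and 856 lower genes (4.96%) in C24, 559 (3.32%) and 834 (4.95%) in SS, and 553 (3.19%) and 813 (4.69%) in SC. In CS they were called for 448 (2.65%) and 650 (3.85%), and in CC for 577 (3.39%) and 857 (5.03%).

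These calls overlapped those of S24 heavily. In C24, 597 higher genes were shared, which is 84.9% of the S24 list and 92.0% of the C24 list, and 805 lower genes, 84.6% and 94%. The shared higher genes were 519 in SS, 522 in SC, 434 in CS and 536 in CC, or 73.8%, 74.3%, 61.7% and 76.2% of the S24 list and 92.8%, 94.4%, 96.9% and 92.9% of the lists of these conditions. Of the lower genes 764, 746, 623 and 760 were shared, or 80.3%, 78.4%, 65.4% and 79.8% of the S24 list and 91.6%, 91.8%, 95.8% and 88.7% of the others. CS had the fewest libraries and the fewest shared genes. Of the 1655 S24 genes over 2-fold, 1599 to 1645 could be tested in another condition, and 0 of them had the opposite sign there.

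Drd1 had log2 differences of 4.50 (SE 0.17) in C24, 4.23 (SE 0.168) in SS, 4.13 (SE 0.26) in SC, 4.11 (SE 0.266) in CS and 4.51 (SE 0.167) in CC. Those of Slc17a7 were -5.60 (SE 0.587), -6.63 (SE 0.352), -5.81 (SE 0.589), -6.15 (SE 0.619) and -7.06 (SE 0.342) in the same order of conditions. Whether the regional difference depended on the condition was tested for 17114 genes, and 149 (0.871%) were called. For Drd1 (adjusted p = 0.932), Ppp1r1b (adjusted p = 0.25) and Slc17a7 (adjusted p = 0.918) a dependence was not called. Of the 149 genes, 59 had a larger value in all 4 of the 30 d conditions than in S24 and 89 a smaller one. In 135 of the 149 the C24 value lay within 0.2 of that of S24 on the log2 scale. The 24 h and 30 d mice differ in withdrawal time, in the injection and in the animals themselves. The title numbers of the 30 d mice all lie below those of the 24 h mice, and what this order stands for is not stated. These differences cannot be told apart.

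The 5 genes with the smallest p included the heat shock genes Hspa1b and Hspa1a, inducible chaperones. Hspa1b had a log2 difference of -2.44 (SE 0.161) in S24 and -2.34 (SE 0.174) in C24, against -0.60 (SE 0.119) in SS, -0.93 (SE 0.186) in SC, -0.58 (SE 0.13) in CS and -0.64 (SE 0.111) in CC (adjusted p = 7.19e-17 for dependence on the condition). Its median level in striatal libraries was 0.99 CPM in S24 and 8.12 to 12.6 CPM in the 30 d conditions, while in glutamatergic libraries it was 4.57 CPM in S24 and 10.4 to 23.9 CPM in the 30 d conditions. Hspa1a was at -1.72 in S24 and -1.42 in C24, and between -0.84 and -0.62 in the 30 d conditions (adjusted p = 9.85e-09). The genes share 60.3% or more of their 50-base words, so their counts cannot be separated with certainty.

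Etv5, an ETS factor downstream of growth factor signals, had log2 differences of -0.27 (SE 0.043) in S24 and -0.25 (SE 0.0481) in C24, and of 0.22 to 0.30 in the 30 d conditions (adjusted p = 3.27e-14). Its striatal median was 97.4 CPM in S24 and 146 to 159.8 CPM in the 30 d conditions. Of its 50-base words 24.5% also occur in Gm4798. Sfxn1, a mitochondrial serine transporter, was at 0.18 (SE 0.041) in S24, 0.07 (SE 0.033) in C24 and 0.39 to 0.49 in the 30 d conditions (adjusted p = 2.02e-13). Cdkn1a, the cell cycle inhibitor p21, was higher by 0.51 in both S24 (SE 0.0742) and C24 (SE 0.0713) and lay between -0.19 and 0.04 in the 30 d conditions (adjusted p = 2.56e-08). Members of the lists above made up 3 of the 149 genes: Etv1, Zfp521 and Rasgrp2.

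**Figure D5:**
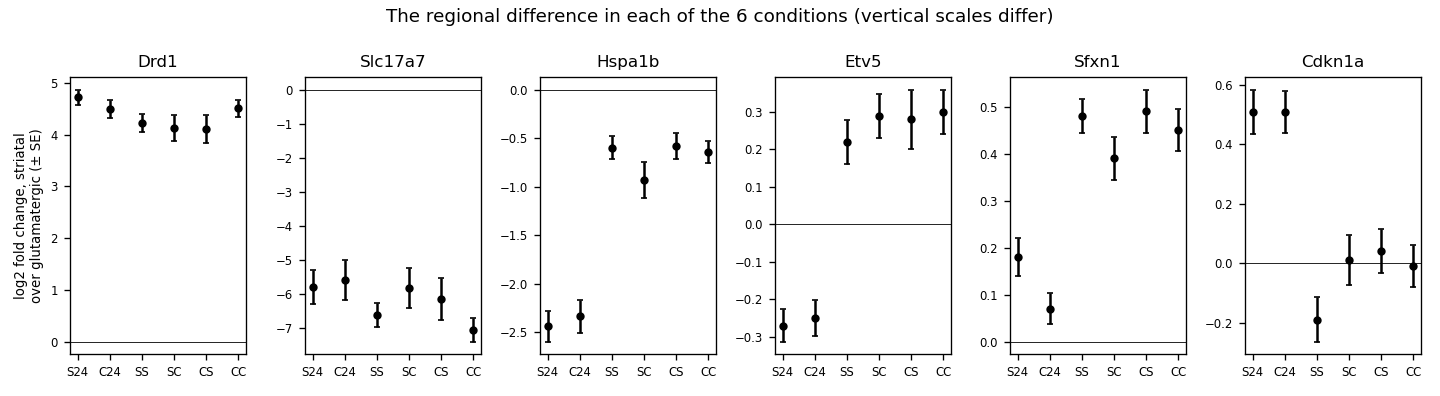
Log2 fold change, striatal over glutamatergic libraries, with its SE, in each of the 6 conditions for Drd1, Slc17a7 and 4 genes whose difference depended on the condition; each panel has its own vertical scale. Drd1 stays between 4.11 and 4.72, while Hspa1b is at -2.44 in S24 and between -0.93 and -0.58 in the 30 d conditions.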

How the data were processed

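Per the labels' protocols, tissue RNA went through Trizol and an RNeasy micro column, DNase and ribosomal RNA depletion before ScriptSeq library construction, although the molecule field of the labels reads polyA RNA. The table the authors deposited holds unnormalized read counts for Ensembl genes, 1 column per library. HTSeq, limma and mm10 are named in the submitters' processing notes. The aligner, annotation release and strand setting are not given in the sources used here. Symbols and positions came from GENCODE M21 (42462 of 43346 identifiers matched).

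Genes were kept by filterByExpr (minimum count 10, minimum total 15), scaled by TMM and fitted with edgeR 4.0.16 in R 4.3.3 on region and mouse. The contrast was the mean of CPu and NAc minus the mean of PFC, BLA and vHipp, with a robust quasi-likelihood F test. Differences over 2-fold were tested with glmTreat. P-values were adjusted by Benjamini-Hochberg over all genes tested, with a threshold of 0.05, and each SE is the log2 difference over the square root of F. CPM are scaled by TMM. A list member is "called" by the quasi-likelihood test. Dependence on the condition was an F test over the 5 other conditions. Its dispersions were estimated without the mouse terms, which the fit itself kept, a departure from the plan made because the fuller estimate was too slow. The scripts were tested on simulated data.

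The mouse block follows from the number in the title, read as the animal. Deviations of same-numbered libraries from their region means had a median correlation of 0.123 over 68 pairs (39 above 0.1), against -0.0124 over 479 pairs with different numbers. Nothing says that the libraries of a mouse were prepared independently.

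The members and lists were chosen with earlier results of these data known. Named genes were Drd1, Ppp1r1b and Slc17a7; the 12 protein-coding genes with the largest difference in each direction that passed both tests and all 6 pairs, did not overlap between classes and reached 1 CPM in the higher class; up to 6 called members of each list with the largest difference and up to 3 against its majority; and the 5 genes with the smallest p for dependence on the condition. Genes named only to complete a small count were named after their values were seen. Gpr52 and Pde2a, members of the lists, were not analysed here, and values of some other members are not reported here, although counts, medians and sums of the lists include them. Alternatives were DESeq2 1.42.0, limma 3.58.1 voom, other scalings, no filter, no block, and leaving out each mouse or region. Figures were drawn with matplotlib 3.10.9.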

Additional observations from a re-analysis of the deposited data

Results flagged for a closer look

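In each region the library farthest from the others was checked by its gap to the next, relative to the region's range, for each combination of a measure and a region. Of these, 25 (12.5%) passed, where chance flags about 1 in 20. Among library totals these were 42135683 counts in NAc-185, 15981104 counts in Cpu-182 and 11866570 counts in BLA-205.

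Hipp-182 stood out in the sums of choroid plexus and ependymal markers (18122 CPM, others at most 79.4 CPM) and leptomeningeal markers (609 CPM), and in Ppp1r1b (92.8 CPM), Sh3rf2 (3.69 CPM) and Impg1 (0.038 CPM). The other vHipp libraries had 0 CPM of Impg1. Hipp-191 had 303 CPM of dopamine neuron markers (others at most 9.31 CPM). Gpr6 stood at 2.08 CPM in Hipp-204 and at 1.36 CPM in PFC-201.

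NAc-182 had 32.6 CPM of Chat and a leptomeningeal sum of 81.7 CPM, NAc-185 had a blood sum of 517 CPM, and NAc-193 had 0.31 CPM of Slc26a4 and the lowest choroid plexus and ependymal sum (37.9 CPM). Cpu-205 had a precursor sum of 186 CPM and a dopamine neuron sum of 21.2 CPM, Cpu-225 had an endothelial and pericyte sum of 632 CPM, and Cpu-182 had a hypothalamic peptide sum of 0.788 CPM. PFC-182 had a precursor sum of 256 CPM and a leptomeningeal sum of 142 CPM, PFC-185 had a blood sum of 269 CPM, PFC-191 had 0.135 CPM of Ptpn7, and PFC-193 had 12.9 CPM of Slc26a4.

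The regional difference itself differed between conditions by an F test for Hspa1b, Etv5, Sfxn1, Hspa1a and Cdkn1a, whose SS value exceeded the S24 value by 1.83, 0.49, 0.30 and 1.00 on the log2 scale for the first 4 and by -0.70 for Cdkn1a.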

How the results depend on the processing

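No alternative moved a count of calls by 1.5 times or more. Over the alternatives run on the 37 libraries, the count of genes higher in striatal libraries lay between 4873 and 6147 and that of genes lower between 4532 and 6244. Those over 2-fold lay between 552 and 848 (higher) and between 656 and 1183 (lower), and those in all 6 pairs between 1309 and 1785 (higher) and between 1568 and 1846 (lower). Leaving out each mouse in turn gave 5456 to 5815 higher and 5473 to 5641 lower genes. Without the replicate block 5656 genes were higher and 5664 lower, 686 and 952 of them over 2-fold; 8 named genes lost their call without it. The count of genes whose difference depended on the condition stayed within 1.5 times of 149. It was 189 with library totals as the only scaling, and lowest with no filter on low counts. Without the 18 libraries over 1 CPM of Gm20594 (a gene model of GENCODE) it was 135. Of these libraries 16 were SC, out of 32, and 2 were CS, so that setting thinned those conditions only. It was added after the data were seen, as was leaving out the 4 libraries that stood apart. The DESeq2 alternative for the test of dependence on the condition was not run. Among the named genes 89 of 3761 alternative values lost the call and 5 reversed: Bcl11a at -0.09 without the NAc and -0.21 without the BLA, Rgs16 at 0.06 without the CPu, Olig1 at -0.01 without the PFC and Rgs5 at 0.02 without the NAc. Of these reversals, that of Bcl11a without the BLA was called (adjusted p = 3.17e-05, quasi-likelihood test). The named genes were picked among those that passed the main fit, so the low count of lost calls is no independent support. Calls aside, the log2 difference moved by over 1.5-fold for 17 to 34 named genes when a region was left out, for 18 with class means over libraries and for 16 without the 4 libraries that stood apart, and for at most 5 under any other setting. Leaving out 1 mouse did so for Sh3rf2 (7.09), Six3 (6.64), Clic6 (4.20) and Ttr (-3.15) with the mouse of Hipp-182, Neurod6 (-6.5) and Rtn4rl2 (-5.64) with that of NAc-185, Th (2.52) with that of Hipp-191 and Ttr (-5.21) with that of Hipp-225. The cause was not tested. The effect of depth was not tested either. For genes near 0 CPM in 1 class or in both, the size of a fitted difference rests on few reads.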
